A study of Mus musculus with 12 samples.

Results

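Transcripts of the tricarboxylic acid (TCA) cycle and of the enzymes that feed carbon into it were followed in mouse brown adipose tissue. The set held 31 genes, chosen by name for their place in the cycle, in the pyruvate dehydrogenase complex and its regulation, and in the supply of cycle intermediates (anaplerosis). Each gene was read by its brightest probe, and 28 of the 31 were measured well enough to be tested, out of 8035 genes tested in all. The tissue came from 6 wild-type (WT) samples and 6 samples of SIRT1 transgenic mice (labelled SIRT1Tg/Tg, here SIRT1tg), all aged 3 months and all on a C57Bl/6N background. The labels do not give the promoter that drives the transgene, nor say that each sample is a separate animal, so each p-value speaks of the spread among these 12 samples, which may be technical. Each array column carries a number, and the numbers fall into a low and a high range with a wide gap between them, each holding 3 arrays of either genotype. The sources used here do not say what the numbers stand for. Within a genotype the arrays are named in the order of their numbers, so that WT 1, WT 2 and WT 3, like SIRT1tg 1, SIRT1tg 2 and SIRT1tg 3, belong to the low range.

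Mitochondria of brown fat burn fatty acids and glucose to make heat. The TCA cycle takes acetyl-CoA, joins it to oxaloacetate as citrate and strips electrons from the intermediates for the respiratory chain, which the uncoupling protein UCP1 lets run without making ATP. Pyruvate enters through the pyruvate dehydrogenase complex, which kinases switch off and phosphatases switch on. Citrate can also leave the mitochondrion and be cut back to acetyl-CoA in the cytosol, where it feeds fatty acid synthesis. Pyruvate carboxylase and amino acid enzymes refill the cycle.

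The overexpressed gene Sirt1, which encodes an NAD+-dependent deacetylase, read 6.89 ± 0.32 in WT and 8.26 ± 0.21 in SIRT1tg (normalised log2 signal, SD, n = 6 each). Between 11221 and 12108 of 25697 probes were detected per array. Of 15 brown adipocyte markers 12 were measured, among them Ucp1 on all 12 arrays, while Dio2 and Prdm16 were not detected on enough arrays. Skeletal muscle markers (17 of 21 measured) differed strongly between arrays, with a mean centred log2 signal from -1.67 to 2.46 in WT and from -1.64 to 2.82 in SIRT1tg. In such bulk tissue fewer cells of a type and less RNA per cell cannot be told apart.

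The promoters of 4 genes on which the results below turn are shown, namely Pdhb and Pdk1, which differed between the number ranges, and Dld and Slc25a10, which had the largest differences between genotypes without passing the test. Each is the 300 bases from 250 before to 50 after the RefSeq start site in GRCm38.p6, read along the strand of the gene. They lie at chr14:8172943-8173242 (minus strand, Pdhb), chr2:71872974-71873273 (plus, Pdk1), chr12:31351422-31351721 (minus, Dld) and chr11:120491587-120491886 (plus, Slc25a10). Capitals mark matches to the searched motifs.
Pdhb: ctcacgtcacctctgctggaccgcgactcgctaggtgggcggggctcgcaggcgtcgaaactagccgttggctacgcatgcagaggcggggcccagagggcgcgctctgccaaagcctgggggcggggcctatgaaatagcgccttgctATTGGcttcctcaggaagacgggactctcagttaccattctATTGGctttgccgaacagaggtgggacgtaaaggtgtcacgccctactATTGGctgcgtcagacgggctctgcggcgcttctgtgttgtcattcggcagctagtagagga
Pdk1: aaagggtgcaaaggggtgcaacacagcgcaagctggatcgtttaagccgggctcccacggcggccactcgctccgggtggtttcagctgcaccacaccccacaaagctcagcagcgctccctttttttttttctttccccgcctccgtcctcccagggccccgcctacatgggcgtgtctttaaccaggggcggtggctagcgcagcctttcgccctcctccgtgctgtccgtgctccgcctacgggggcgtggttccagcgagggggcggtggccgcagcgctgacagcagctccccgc
Dld: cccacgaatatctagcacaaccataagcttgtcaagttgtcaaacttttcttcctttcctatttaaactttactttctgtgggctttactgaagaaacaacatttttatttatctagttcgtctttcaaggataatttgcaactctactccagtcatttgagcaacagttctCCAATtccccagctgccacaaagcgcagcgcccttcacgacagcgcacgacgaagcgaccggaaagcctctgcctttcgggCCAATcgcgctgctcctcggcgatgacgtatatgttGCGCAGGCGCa
Slc25a10: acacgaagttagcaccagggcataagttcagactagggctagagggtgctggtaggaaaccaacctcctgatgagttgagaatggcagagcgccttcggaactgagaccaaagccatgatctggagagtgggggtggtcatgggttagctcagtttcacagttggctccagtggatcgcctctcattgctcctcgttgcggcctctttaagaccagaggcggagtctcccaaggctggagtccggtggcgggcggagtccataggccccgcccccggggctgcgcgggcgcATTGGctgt

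The motifs searched on both strands were CCAAT (the CCAAT box), AAGGTCA (an element bound by estrogen-related receptors), GCGCN followed by TGCGC (NRF1), CACGTG (the E-box), TGACGTCA (the cyclic AMP element) and TCACCCCAC (a sterol regulatory element), and none of these contains another. The Pdhb window holds 3 CCAAT boxes, each on the opposite strand as ATTGG, at -101, -60 and -12 from the start site. Dld holds 2 CCAAT boxes and an NRF1 match, and Slc25a10 holds a CCAAT box. Neither the Pdk1 window shown nor that of its other annotated start site holds a match. Promoters were found for 29 of the 31 members. A CCAAT box occurs in 18 of these 29 genes (62.1%), against 41.1% of 27025 genes. Those 27025 genes were not limited to genes detected in this tissue, and no test of the motif shares was made. The NRF1 motif occurs in 2, Dld and Sucla2 (6.9%, against 5.19% of all genes), the E-box in 4 (13.8%, against 8.09%), the cyclic AMP element in 2 (6.9%, against 2.03%), the receptor element in 2 (6.9%, against 5.38%) and the sterol element in 0 (against 0.614%).

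The members were read by 42 probes. The 3 genes left untested were Pdhx, the subunit that anchors the E3 enzyme in the pyruvate dehydrogenase complex (detected on 0 of 12 arrays), Pdk3, a kinase of that complex (3 of 12, all of them WT) and Got1, the cytosolic aspartate aminotransferase (5 of 12). No level is given for these, since a probe that stays near background says little about its transcript. Of the 28 tested, 26 were detected on all 12 arrays, and Sucla2 and Pdp1 on 11. Signals of different probes cannot be ranked against each other, so the comparisons below are between arrays for the same probe.

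**Figure D1:**
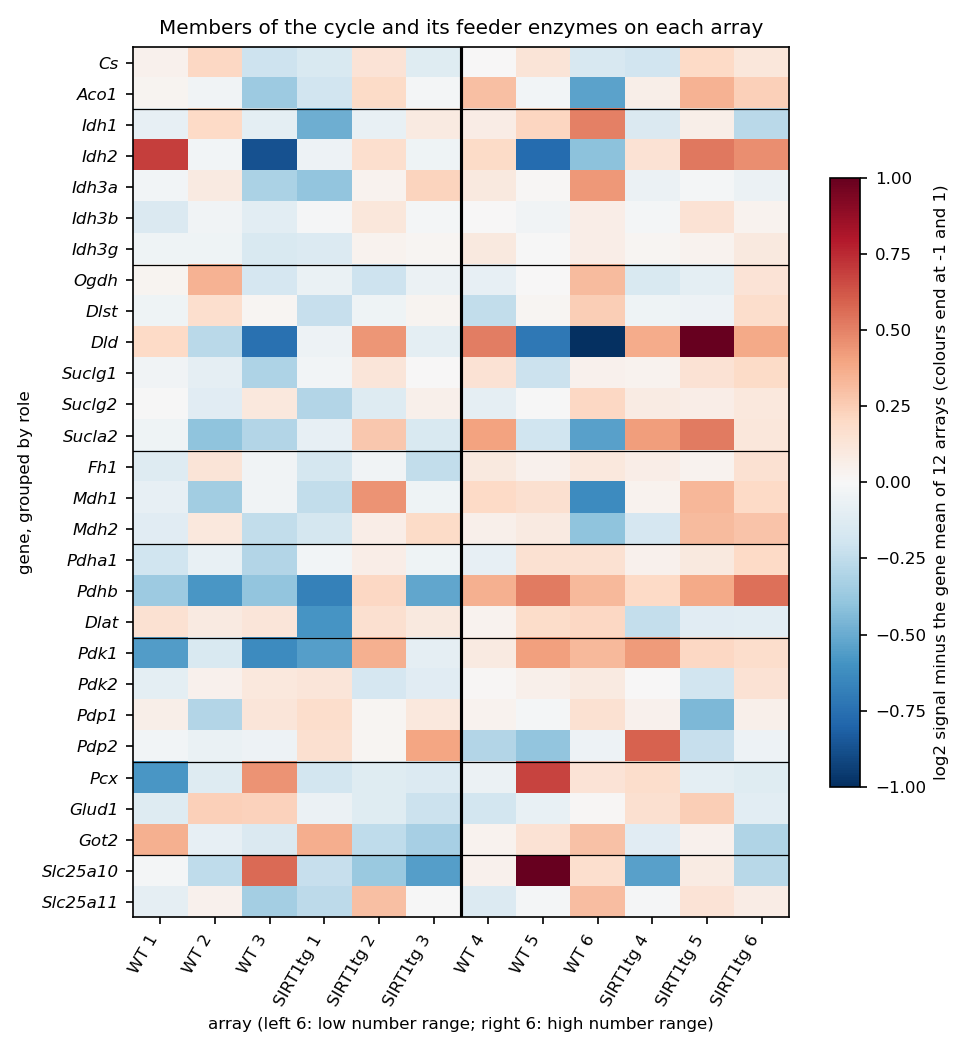
Log2 signal of each of the 28 tested genes (rows, grouped by role) on each of 12 arrays (columns), minus the mean of that gene over the arrays, with the low number range left of the line and the high range right of it. Pdhb lies above its mean on all 6 high-numbered arrays and on SIRT1tg 2, and Dld ranges from 7.22 on WT 6 to 9.28 on SIRT1tg 5.

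Between genotypes no gene of the cycle passed the test. The median log2 fold change of the 28 genes, SIRT1tg minus WT, was 0.01, against -0.01 over all genes tested, and 14 of the 28 lay above 0 (47% of all genes did). By limma, with p adjusted by Benjamini-Hochberg over all genes and a threshold of 0.05, 0 of 28 passed, where 12 of 8035 genes (0.149%) did. At an unadjusted p under 0.05 stood 6 of 28 (21.4%), against 15.2% of all genes. When number range entered the model as a block, 84 genes passed (1.05%) and again 0 of the 28, with 6 at an unadjusted p under 0.05 (17.9% of all genes). In no member did the 6 arrays of one genotype lie wholly above those of the other, which 106 genes did (1.32%). The 6 members under an unadjusted p of 0.05 were Slc25a10, Dld, Dlat, Sucla2, Pdp2 and Idh1, and they point both ways.

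**Figure D2:**
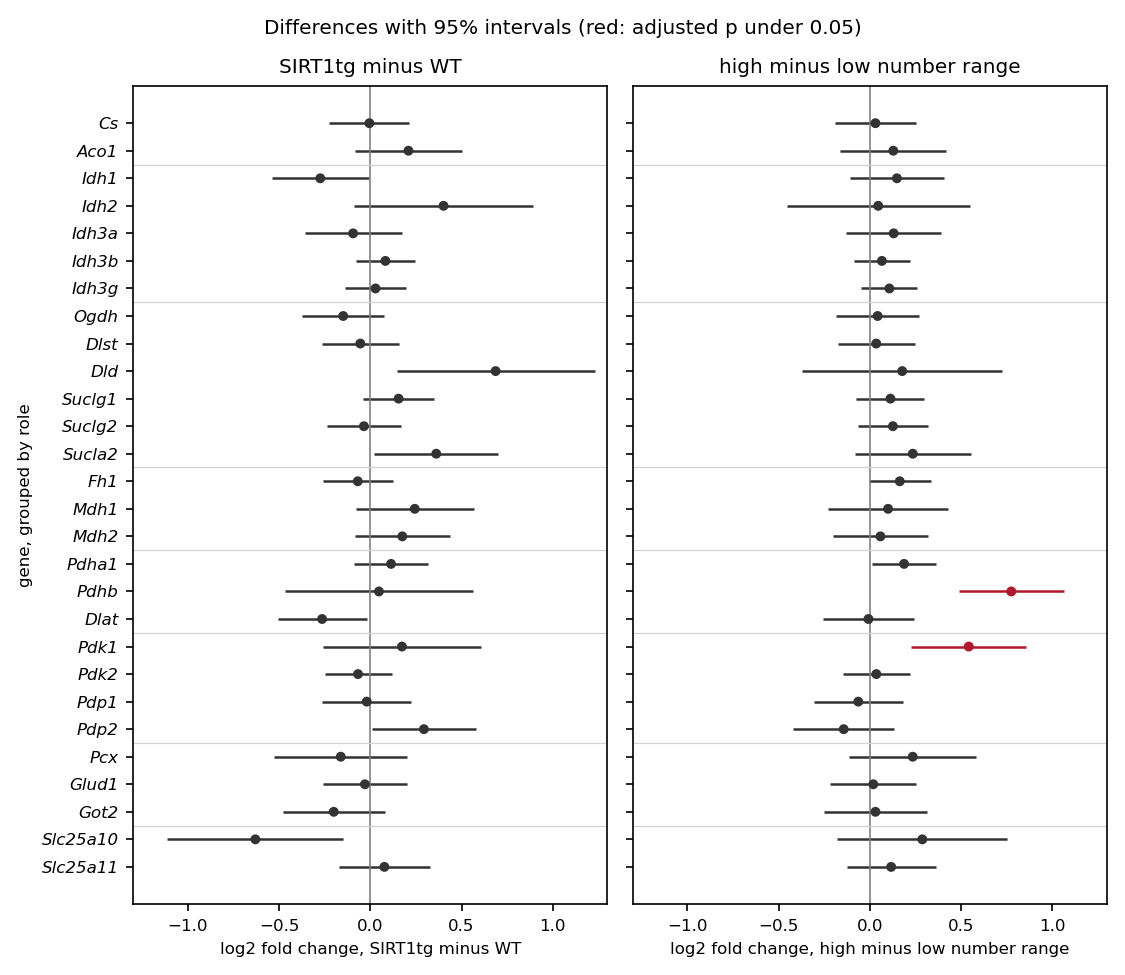
Log2 fold change of each tested gene with its 95% interval, SIRT1tg minus WT on the left and high minus low number range on the right (12 arrays each), with calls at an adjusted p under 0.05 in red. Between genotypes no gene is called, while Pdhb (0.78) and Pdk1 (0.54) are called between the ranges.

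At the entry of the cycle the genotypes overlapped. Citrate synthase, encoded by Cs, joins acetyl-CoA to oxaloacetate. Its signal ran from 11.99 over a median of 12.23 to 12.41 in WT and from 12.01 over 12.20 to 12.40 in SIRT1tg. The lowest and highest arrays of the genotypes nearly coincided, and the log2 fold change was -0.01 with a 95% interval of -0.22 to 0.21. Aco1 encodes the cytosolic aconitase, which also serves as an iron-regulatory protein, and stood at 0.21 (-0.08 to 0.50).

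The isocitrate dehydrogenases differed from each other in sign. Idh1, the cytosolic NADP-dependent enzyme, ran from 9.29 over 9.52 to 9.89 in WT and from 8.89 over 9.28 to 9.47 in SIRT1tg. SIRT1tg 1, SIRT1tg 4 and SIRT1tg 6 lay below all WT arrays and the other 3 among them, at a log2 fold change of -0.27 ± 0.12 (SE; adjusted p = 0.311). Idh2, its mitochondrial counterpart, had 0.40 ± 0.23 (adjusted p = 0.447). WT arrays spread for Idh2 from 9.18 to 10.74, with WT 1 above every SIRT1tg array and WT 3, WT 5 and WT 6 below all of them, and the SIRT1tg arrays lay between 9.99 and 10.57. Of the NAD-dependent enzyme of the cycle itself, the catalytic subunit Idh3a ran from 10.98 over 11.34 to 11.73 in WT and from 10.90 over 11.25 to 11.52 in SIRT1tg, at -0.09 (95% interval -0.36 to 0.17). WT 6 was its highest array and SIRT1tg 1 its lowest, and the rest were mixed. The subunits Idh3b and Idh3g stood at 0.08 and 0.03 (-0.14 to 0.19 for Idh3g). Idh3g ran from 13.28 over 13.41 to 13.54 in WT and from 13.30 over 13.47 to 13.54 in SIRT1tg. The other Idh3g probe stood at -0.06.

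In the steps from 2-oxoglutarate to succinate, Dld had the largest difference of any member. It encodes the E3 subunit that reoxidises the lipoyl groups of the pyruvate, 2-oxoglutarate and branched-chain complexes. Dld ran from 7.22 over 7.76 to 8.77 in WT and from 8.16 over 8.63 to 9.28 in SIRT1tg. WT 2, WT 3, WT 5 and WT 6 lay below all SIRT1tg arrays while WT 1 and WT 4 lay among them, and the log2 fold change was 0.69 ± 0.25 (SE; 95% interval 0.14 to 1.23; adjusted p = 0.208). Adjusted for muscle signal it was 0.91 (adjusted p = 0.0562). Sucla2, the ATP-forming subunit of succinyl-CoA ligase, read near background, from 4.44 over 4.73 to 5.38 in WT and from 4.83 over 5.17 to 5.49 in SIRT1tg, with a log2 fold change of 0.36 ± 0.16 (adjusted p = 0.291). The genotypes overlapped, and detection failed on a single array, which was WT. The shared alpha subunit Suclg1 stood at 0.16, with its further probes at 0.04 and 0.37, and the GTP-forming subunit Suclg2 at -0.04, with 0.17 at its other probe. Ogdh, the E1 subunit of the 2-oxoglutarate complex, ran from 11.45 over 11.64 to 11.97 in WT and from 11.41 over 11.54 to 11.76 in SIRT1tg. Its log2 fold change was -0.15 (95% interval -0.37 to 0.08) and that of the E2 subunit Dlst -0.05. The subunits of that complex had values on both sides of 0, at -0.15, -0.05 and 0.69.

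From fumarate to oxaloacetate every interval included 0. Fh1, fumarase, ran from 11.97 over 12.17 to 12.23 in WT and from 11.85 over 12.10 to 12.25 in SIRT1tg, and stood at -0.07 (95% interval -0.26 to 0.12). The malate dehydrogenases, cytosolic Mdh1 and mitochondrial Mdh2, stood at 0.24 and 0.18, and the other detected Mdh1 probe at 0.16. Both intervals included 0 (-0.08 to 0.57 and -0.08 to 0.43).

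Of the pyruvate dehydrogenase complex, the E2 core subunit Dlat ran from 8.57 over 8.67 to 8.74 in WT and from 7.94 over 8.42 to 8.69 in SIRT1tg. WT arrays were tightly grouped, SIRT1tg 1 lay well below the rest, and SIRT1tg 2 and SIRT1tg 3 lay among the WT arrays. The log2 fold change was -0.26 ± 0.11 (SE; adjusted p = 0.284), and leaving out a single array moved it between -0.32 and -0.17. Pdha1, the E1 alpha subunit that carries the regulatory phosphorylation sites, ran from 12.72 over 12.94 to 13.17 in WT and from 12.97 over 13.07 to 13.21 in SIRT1tg, and stood at 0.11 (95% interval -0.09 to 0.32). Pdhb, the E1 beta subunit, stood at 0.05 (-0.47 to 0.56), with SDs of 0.47 in WT and 0.50 in SIRT1tg. The WT arrays fell apart by number range, and so did the SIRT1tg arrays except SIRT1tg 2, as described below. The other, dimmer Pdhb probe stood at 0.69 between genotypes, so the Pdhb probes disagree there.

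Among the regulators, the phosphatase Pdp2 ran from 10.20 over 10.53 to 10.56 in WT and from 10.36 over 10.68 to 11.18 in SIRT1tg. SIRT1tg 3 and SIRT1tg 4 were highest, at 10.99 and 11.18. SIRT1tg 1 and SIRT1tg 2 also lay above all WT arrays, at 10.75 and 10.62, and SIRT1tg 5 and SIRT1tg 6 lay among them. The log2 fold change was 0.29 ± 0.13 (SE; adjusted p = 0.307; 0.23 at its other probe). The phosphatase Pdp1, close to background, stood at -0.02. The kinases Pdk1 and Pdk2 stood at 0.17 (95% interval -0.26 to 0.61) and -0.07 (-0.25 to 0.12).

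**Figure D3:**
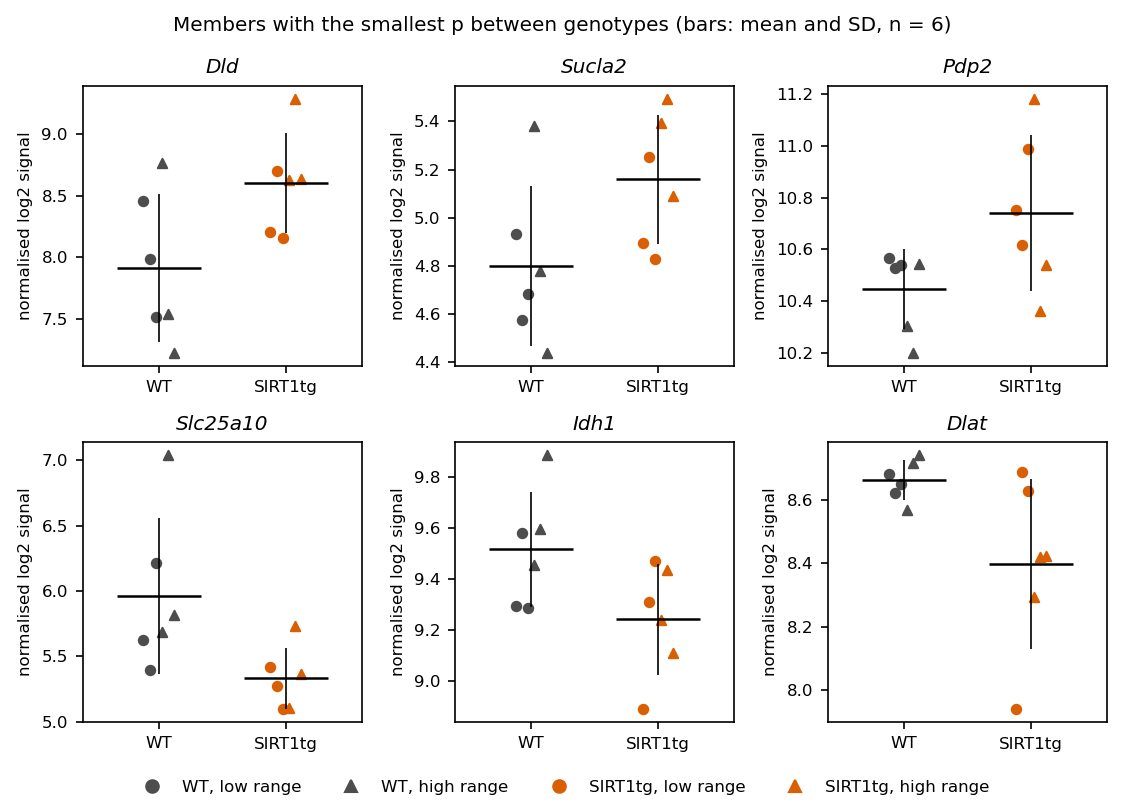
Normalised log2 signal by genotype of the 6 members with the smallest p, where circles are low-numbered and triangles high-numbered arrays, and bars give the mean and SD of 6 arrays. In each panel the genotypes overlap, and WT 5 stands alone at 7.04 for Slc25a10.

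Enzymes that refill the cycle and the carriers gave 1 larger difference. Slc25a10, the mitochondrial dicarboxylate carrier, which exchanges malate or succinate for phosphate, ran from 5.39 over 5.75 to 7.04 in WT and from 5.10 over 5.32 to 5.73 in SIRT1tg. WT 5 read far above all others and WT 3 next, and the log2 fold change was -0.63 ± 0.23 (SE; 95% interval -1.11 to -0.15; adjusted p = 0.193). Without 1 array it came down to -0.41 at the least. Slc25a11, the 2-oxoglutarate/malate carrier, stood at 0.08, with 0.18 and 0.27 at its further probes. Pcx, pyruvate carboxylase, stood at -0.16 (95% interval -0.53 to 0.20), with WT arrays from 7.74 over 8.36 to 8.997 and SIRT1tg arrays from 8.14 over 8.20 to 8.50. The WT arrays spread to both sides of the SIRT1tg arrays. Glud1, glutamate dehydrogenase, ran from 7.51 over 7.65 to 7.93 in WT and from 7.47 over 7.61 to 7.94 in SIRT1tg, and stood at -0.03 (-0.26 to 0.20) and Got2, the mitochondrial aspartate aminotransferase, at -0.20 (-0.48 to 0.08).

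Between the number ranges the picture was different. With genotype kept in the model, Pdhb and Pdk1 rose on the high-numbered arrays (2 of 28, 7.14%, where 404 of 8035 genes, 5.03%, passed and 194, 2.41%, passed as higher). The share past the test was near that of all genes. The direction was more uniform: 25 of 28 members (89.3%) lay above 0, against 46.2% of all genes, and their median log2 fold change, high minus low, was 0.11, against -0.02 over all genes. This count stayed between 20 and 25 in every alternative run on these 28 genes. It was added after values were seen, and the members were read on the same arrays, so their signs are not independent. The 3 members not above 0 were Dlat (-0.01), Pdp1 (-0.06) and Pdp2 (-0.14), so both phosphatases stood below 0. At an unadjusted p under 0.05 stood 3 of 28 (10.7%), against 23.7% of all genes, and most members had small differences.

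Pdhb read 10.52, 10.31 and 10.50 on WT 1 to 3 and 11.25, 11.41 and 11.21 on WT 4 to 6. On the SIRT1tg arrays it read 10.22, 11.10 and 10.37 in the low and 11.09, 11.27 and 11.44 in the high range. The WT arrays of the ranges lay well apart, and in SIRT1tg a single low-numbered array, SIRT1tg 2, read as high as the high-numbered ones. The log2 fold change was 0.78 ± 0.13 (SE; 1.71-fold; adjusted p = 0.0106), and exact permutation of the 6 and 6 arrays (two-sided) gave p = 0.00433. It was 0.85 in WT alone and 0.70 in SIRT1tg alone, and the other Pdhb probe gave 0.62. The call held whichever single array was left out, at 0.71 to 0.90, and was lost within SIRT1tg alone (3 against 3 arrays, adjusted p = 0.357, where 1 of 8035 genes, 0.0124%, passed).

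Pdk1, a kinase that switches the same complex off, read 7.24, 7.64 and 7.16 on WT 1 to 3 and 7.89, 8.20 and 8.12 on WT 4 to 6. In SIRT1tg it read 7.25, 8.15 and 7.70 in the low and 8.22, 8.005 and 7.97 in the high range. SIRT1tg 2 again lay with the high-numbered arrays, and without it no low-numbered array reached them. The log2 fold change was 0.54 ± 0.15 (SE; 1.46-fold; adjusted p = 0.0499), with an exact permutation p of 0.013. This call is marginal: it held when SIRT1tg 2 was left out (0.66, adjusted p = 0.0094) but not when any of the other 11 arrays was (adjusted p up to 0.118).

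The third component of the same step, Pdha1, ran from 12.72 over 12.96 to 13.08 in the low and from 12.93 over 13.14 to 13.21 in the high range. Its log2 fold change of 0.19 ± 0.08 (SE) did not pass (adjusted p = 0.180). Fh1 stood at 0.16 with an interval that included 0 (adjusted p = 0.223). It ran from 11.85 over 12.02 to 12.23 in the low and from 12.13 over 12.18 to 12.25 in the high range, so the high-numbered arrays lay close together at the upper end. Slc25a10 stood at 0.29, Pcx at 0.24 and Sucla2 at 0.24, each with an interval that included 0. Idh3g stood at 0.11, with its other probe at 0.35, and Suclg1 at 0.11, with 0.23 and 0.08.

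For the remaining members the difference between the ranges did not pass. Dld stood at 0.18, Idh1 at 0.15, Idh3a at 0.13, Aco1 at 0.13, Suclg2 at 0.13, Slc25a11 at 0.12 and Mdh1 at 0.10. Below these came Idh3b (0.07), Mdh2 (0.06), Idh2 (0.05), Ogdh (0.04), Pdk2 (0.04), Dlst (0.03), Cs (0.03), Got2 (0.03) and Glud1 (0.02). The 10 further detected probes of members all had the sign of the tested probe between ranges, and 7 of 10 did between genotypes.

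A list of other genes of the same metabolism held the neighbours of these members, of which 26 were measured. Between ranges 6 of the 26 passed (23.1%, against 5.03% of all genes), 5 of them upward and 1 downward with the higher numbers. Since the list was chosen with earlier results of these data known, this share cannot show that such genes differ more often than others. The 5 that rose were Acly, ATP-citrate lyase, which cuts cytosolic citrate to acetyl-CoA (1.97 ± 0.28, SE; 3.91-fold; adjusted p = 0.00721), Acss2, which makes cytosolic acetyl-CoA from acetate (1.55 ± 0.24), Slc25a1, the citrate carrier of the inner membrane (1.46 ± 0.27), Me1, the cytosolic malic enzyme that makes NADPH (1.17 ± 0.29), and Pkm, the glycolytic enzyme that makes pyruvate (0.84 ± 0.17). The adjusted p of the last 4 lay between 0.00825 and 0.0349. Ppargc1a, a coactivator of mitochondrial biogenesis, fell (-1.04 ± 0.27; adjusted p = 0.0430).

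Acly read 10.81, 11.06 and 11.28 on WT 1 to 3 and 13.00, 13.58 and 13.64 on WT 4 to 6, and in SIRT1tg 11.03, 12.71 and 10.86 in the low and 12.89, 13.18 and 13.24 in the high range. All high-numbered arrays lay above all low-numbered ones, and SIRT1tg 2 was the low-numbered array nearest to them. Slc25a1 read 9.78, 9.97 and 10.30, then 11.78, 12.37 and 11.98 in WT, and 10.04, 11.42 and 9.90, then 11.10, 11.51 and 11.44 in SIRT1tg. The same array, SIRT1tg 2, lay among the high-numbered ones. Acly, Acss2 and Slc25a1 passed whichever single array was left out, while Pkm did so in 11 of 12 cases, Ppargc1a in 3 and Me1 in 2. Between genotypes 0 of the 26 passed. The largest log2 fold change among them was that of Ppargc1a (0.96). Those with the smallest p were Sdhd, a membrane subunit of succinate dehydrogenase (0.79, adjusted p = 0.116), and Pck1, phosphoenolpyruvate carboxykinase (0.83, 0.133). Next came Glul, glutamine synthetase (0.62, 0.164), and Lipt2, a lipoyl transferase (-0.25, 0.223).

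**Figure D4:**
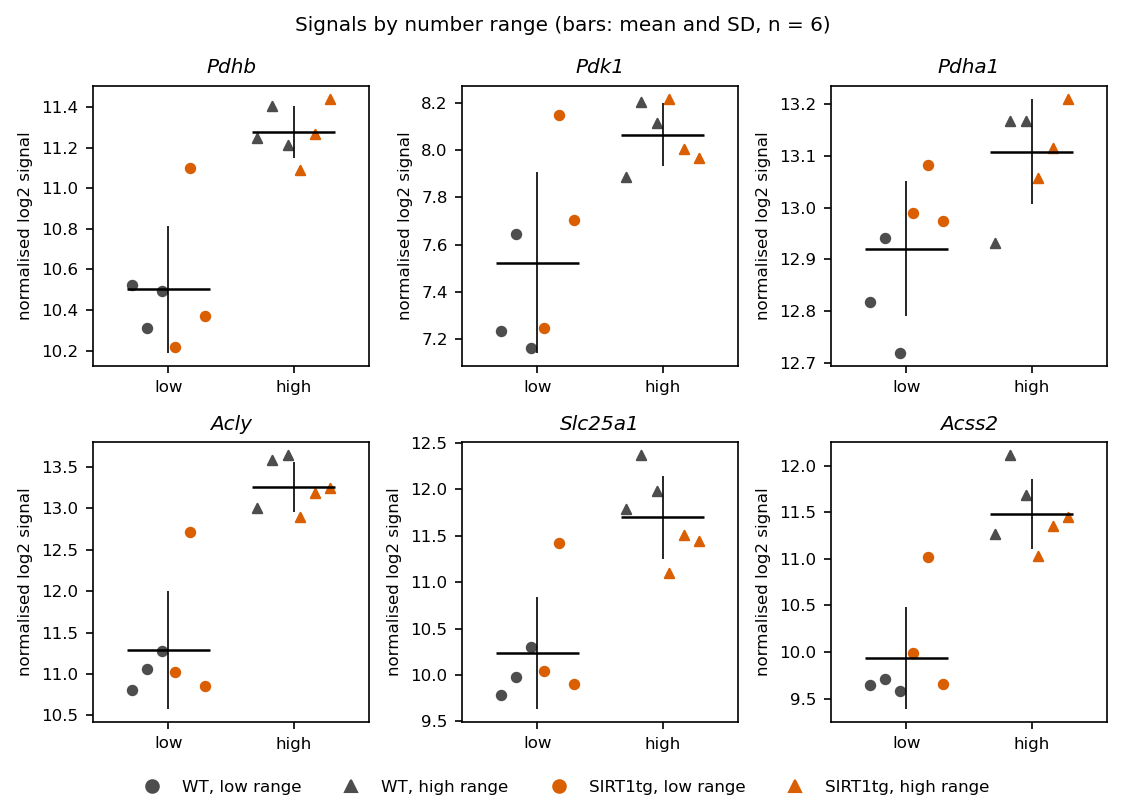
Normalised log2 signal by number range of Pdhb, Pdk1 and Pdha1 (top) and of Acly, Slc25a1 and Acss2 (bottom), with bars for the mean and SD of 6 arrays. In the panels of Pdhb, Acly, Slc25a1 and Acss2 a single low-numbered array, SIRT1tg 2, lies near the high-numbered arrays, at 11.10 for Pdhb and 12.71 for Acly.

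The other lists of mitochondrial metabolism stood as follows between ranges. The 26 neighbour genes had a median of 0.08 with 17 above 0. Respiratory complex I had a median of -0.02 with 15 of 33 genes above 0 and 0 past the test, mitochondrial fatty acid oxidation -0.06 with 4 of 17 above 0, 1 passing as higher and 1 as lower, and branched-chain amino acid breakdown 0.01 with 10 of 18 above 0 and 0 past the test. Within SIRT1tg alone the median of branched-chain breakdown was 0.14, beside 0.11 for the members, and within WT alone it was -0.07, beside 0.09. No test of the difference between lists was made.

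Marker lists of other cell types were read between the ranges as well. Skeletal muscle markers had all 17 measured genes above 0, with a median of 1.203, 0 of them past the test, and mean centred signals of -1.65 to 1.54 in the low and -1.67 to 2.82 in the high range. Endothelial markers had 0 of 10 above 0 and 2 past the test as lower, with a median of -0.32 and means of -0.04 to 0.34 (low) and -0.39 to 0.00 (high). Brown adipocyte markers had 2 of 12 above 0, with a median of -0.13 and means of -0.01 to 0.27 (low) and -0.22 to 0.04 (high). In that list 1 gene passed as lower, which was Ppargc1a, already given among the neighbour genes. Red cell markers had 3 of 3 above 0 and 1 past the test as higher, with means of -0.83 to 0.06 (low) and -0.13 to 0.97 (high). With the muscle signal as a covariate Pdhb stood at 0.76 (adjusted p = 0.0265) and Pdk1 at 0.55 (adjusted p = 0.0902). Aco1, Cs, Dld, Idh2, Mdh1 and Mdh2 turned below 0 in that fit, between -0.13 and -0.02. Macrophage markers had 1 of 10 above 0 (median -0.18) and fibroblast and matrix markers 4 of 9 (median -0.01), with 0 past the test in either list. The part of marker lists other than muscle in these results was not tested.

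Between genotypes muscle markers had 0 of 17 above 0 (median -1.14), macrophage markers 1 of 10 (median -0.61) and fibroblast and matrix markers 0 of 9 (median -0.53), and endothelial markers had 7 of 10 above 0 (median 0.16). Mean centred signals of the macrophage list lay between -0.31 and 1.09 in WT and between -0.55 and 0.24 in SIRT1tg, and those of the matrix list between -0.02 and 0.65 and between -0.31 and -0.20. The slope of each gene on the muscle signal passed for 39 of 8035 genes (0.485%) and for 0 of the 28. At an unadjusted p under 0.05 stood 7 of the 28 (25%, against 7.54% of all genes). They were Cs, Aco1, Dld, Sucla2 and Mdh2, with slopes above 0, and Pdp1 and Pdp2, with slopes below 0. Adjusted for muscle signal, 0 of the 28 passed between genotypes (61 of all genes, 0.759%), with 8 at an unadjusted p under 0.05 (28.6%, against 15.3% of all genes).

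The genotype difference was also set side by side within the ranges. Dld stood at 0.37 in the low and 1.01 in the high range, Slc25a10 at -0.48 and -0.78, Sucla2 at 0.26 and 0.46, Dlat at -0.23 and -0.30, Pdp2 at 0.24 and 0.35, and Idh1 at -0.16 and -0.38. The sign was the same in both ranges for these 6 and for 19 of 28 members. The medians of the 28 were 0.07 (low) and 0.02 (high). An interaction term of genotype and range passed for 1 of 8035 genes (0.0124%) and for 0 of the 28, with 1 at an unadjusted p under 0.05 (7.37% of all genes). The smallest unadjusted p among them was that of Glud1 (0.0424, adjusted p = 0.660), at -0.25 in the low and 0.19 in the high range. Within WT alone 21 of 28 members lay above 0 between ranges (47.7% of all genes), and within SIRT1tg alone 23 did (46.9%). The ranges overlapped in each of the 28 (0 of 28 apart), while 2.91% of all genes had ranges that did not. The range difference had the same sign in both genotypes for 18 of 28.

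A few pairs of members varied together, or in opposite directions, from array to array within a genotype. Pearson correlations of the 378 pairs of members were taken over 12 arrays after the mean of each genotype was removed, and 4 of the 378, 3 positive and 1 negative, passed a two-sided permutation test (100000 permutations) adjusted over all pairs. Pairs of genes outside the set were not examined, so nothing here is particular to the members. Aco1 and Dld had r = 0.885 and Spearman's rho = 0.902 (permutation p = 9e-05 and 0.00013, adjusted p = 0.0208 and 0.0491). Dld and Sucla2 had r = 0.87 and rho = 0.846 (permutation p = 0.00022 and 0.00087, adjusted p = 0.0208 and 0.128). Both pairs held within ranges, at r = 0.89 and 0.88 for the former and 0.789 and 0.93 for the latter (low and high, 6 arrays each), and without the 2 arrays farthest from the median of the first gene (0.853 and 0.758).

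Idh1 belongs to the NADP-dependent cytosolic and Idh3a to the NAD-dependent mitochondrial isocitrate dehydrogenase. This pair had r = 0.886 and rho = 0.792 (permutation p = 0.00012 and 0.00319, adjusted p = 0.0208 and 0.128), with 0.931 and 0.775 within the ranges and 0.753 without those 2 arrays. The pair of Cs and Pdp1 was negative, with r = -0.741 and rho = -0.804 (permutation p = 0.00021 and 0.00245, adjusted p = 0.0208 and 0.128). Its values were -0.812 and -0.686 within the ranges and -0.783 without those 2 arrays, and Pdp1 reads close to background. The arrays left out were picked by Cs, so SIRT1tg 5 and WT 2, lowest for Pdp1 at 4.42 and 4.59, stayed in. Idh2 and Pcx had a lower r of -0.843 but did not pass (permutation p = 0.00099, adjusted p = 0.0608). Within the ranges r was -0.966 (low) and -0.901 (high), and rho was -0.636 (permutation p = 0.0311, adjusted p = 0.297). Pdhb and Pdk1 had r = 0.826 (permutation p = 0.00152, adjusted p = 0.0608; rho = 0.72, permutation p = 0.0113, adjusted p = 0.183). Both genes differed between the ranges, and that difference was left in these values. With the mean of each genotype and range removed, r was 0.532. Within the ranges r was 0.675 (low) and -0.05 (high), so the correlation did not hold among the high-numbered arrays. All members of an array share its hybridisation and normalisation. The arrays also differed in muscle signal. Slopes on it were 0.11 for Aco1, 0.19 for Dld, 0.10 for Sucla2, 0.07 for Cs and -0.08 for Pdp1. By limma each of these had an unadjusted p under 0.05, and none passed after adjustment. The slopes of Idh1 (0.01) and Idh3a (0.0006) lay near 0. The part of the muscle signal in these pairs was not tested.

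**Figure D5:**
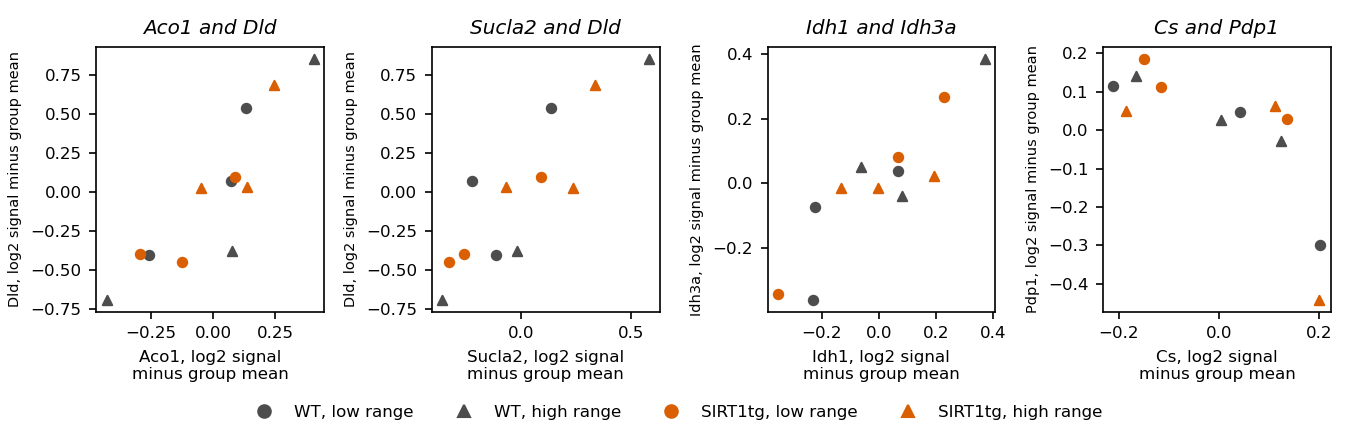
Log2 signals of the 4 pairs of members past the adjusted permutation test, each minus the mean of its genotype, on 12 arrays (circles low-numbered, triangles high-numbered). The first 3 pairs run upward, at r = 0.885, 0.87 and 0.886, and Cs and Pdp1 run downward at r = -0.741.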

How the data were processed

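RNA of 12 brown adipose samples was turned into biotinylated cRNA for Illumina arrays, according to the labels' protocols. GenomeStudio is listed, without a version, in the submitters' processing notes. The deposited table used here gives, per the file headers, a raw average intensity (linear scale) and a detection p-value for each probe and array. In a further table the intensity values were processed by the authors; they are linear, with 26.1% at or below 0 and column medians of 5.705 to 5.759, by a normalisation not stated.

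Raw signals went through limma 3.58.1 (R 4.3.3), using neqc with an offset of 16, which corrects background, quantile-normalises and takes log2. The platform annotation gives a single gene symbol for 23978 of the 25697 probes. A probe had to be detected at p under 0.05 on 6 or more of the 12 arrays, and the brightest such probe stood for its gene. Fits (lmFit, eBayes) covered all 8035 genes, without covariates between genotypes and with genotype as a term between number ranges. Adjusted p-values of genes are limma's, by Benjamini-Hochberg. The fit was tested on simulated data with independent noise for each gene and no genotype difference. Variation shared between genes was not simulated, so that test does not cover it. Same-numbered samples of the processed table correlated between -0.106 and 0.384 in their deviations and were not treated as pairs.

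Members and lists were chosen with earlier results of these data known. Values by array, or their lowest, median and highest, are given for members past the threshold, for the 6 with the smallest p and the 6 with the largest difference in each comparison, and for Cs, Idh3a, Ogdh, Pdha1, Pcx and Glud1. The count of members above 0 and the repeats for the neighbour list were added after values were seen. Which chip held which array is unknown. Precision is limited by the number of arrays.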

Additional observations from a re-analysis of the deposited data

Results flagged for a closer look

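An array was marked where its gap to the nearest other array of its genotype or number range passed the 95% critical share of the whole range of the 6 arrays (Dixon), which chance passes in about 1 of 20 groups. Of 112 groups of the 28 genes, 12 were marked. In the low range these were Pdhb on SIRT1tg 2 (11.10, the next 10.52), Dlat on SIRT1tg 1 (7.94, the next 8.62) and Pdp1 on WT 2 (4.59, the next 4.90). In the high range they were Idh3a (11.73) and Mdh1 (7.61) on WT 6, Pcx (8.997) and Slc25a10 (7.04) on WT 5, Pdp2 on SIRT1tg 4 (11.18) and Pdp1 on SIRT1tg 5 (4.42). Within SIRT1tg they were Idh3g on SIRT1tg 1 (13.30), Pdp1 on SIRT1tg 5 (4.42) and Pcx on SIRT1tg 4 (8.50). No member had an interaction past the threshold.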

How the results depend on the processing

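Between genotypes 0 members passed under every alternative and whichever array was left out, while the count over all genes ran from 1 to 163 (12 as reported; 3 to 151 with an array left out). Between ranges 1 member, Pdhb, passed without background correction, with median scaling, with probes detected on at least 3 arrays, without a filter, with array weights, with the muscle covariate, without genotype in the model and in WT alone, and 0 in SIRT1tg alone; with an array left out 1 to 2 passed. The count over all genes ran from 1 to 561 there (404 as reported; 83 to 638 with an array left out). Pdk1 lost its call under these same 9 settings, and the cause was not tested. The sign held in all settings for 17 of 28 members between genotypes and 14 between ranges. Between genotypes it turned with median scaling for Idh3g (-0.024), Pdhb (-0.068) and Slc25a11 (-0.046), with cyclic loess for Cs (0.0085), with probe means for Idh3g (-0.017) and Suclg2 (0.068), with array weights for Cs (0.0072) and Suclg2 (0.0083), with the muscle covariate for Cs (0.079), in the low range alone for Idh3a (0.039) and Pdp1 (0.14) and in the high range alone for Cs (0.049), Dlst (0.023), Suclg2 (0.048), Fh1 (0.0043), Pdhb (-0.024), Pdk1 (-0.0058) and Glud1 (0.19). Between ranges it turned with median scaling for Pdk2 (-0.011), Glud1 (-0.017) and Got2 (-0.0046), with the muscle covariate for Cs (-0.082), Aco1 (-0.031), Idh2 (-0.13), Dld (-0.10), Mdh1 (-0.019), Mdh2 (-0.086) and Pdp1 (0.062), in WT alone for Cs (-0.024), Idh2 (-0.26), Dlst (-0.043), Dld (-0.14), Mdh2 (-0.0021), Dlat (0.025), Pdp1 (0.092) and Glud1 (-0.20) and in SIRT1tg alone for Idh3a (-0.0029) and Got2 (-0.051). With an array left out the genotype difference ran for Cs from -0.047 to 0.036, Pdhb from -0.064 to 0.19, Glud1 from -0.082 to 0.016, Pdp1 from -0.079 to 0.069 and Suclg2 from -0.061 to 0.020. The range difference ran for Glud1 from -0.037 to 0.071, Got2 from -0.020 to 0.14, Cs from -0.013 to 0.079, Idh2 from -0.098 to 0.25, Ogdh from -0.0071 to 0.11, Dlat from -0.11 to 0.056, Dlst from -0.0094 to 0.099 and Pdp1 from -0.14 to 0.028. Columns of the raw table carry no replicate number, so the replicate block was run on the processed values: 0 members passed with the block and 0 without, 8 and 9 of all genes did, the median of the members was 0.0081 in both fits, and 3 of 6 WT samples correlated best with the SIRT1tg sample of their own number. The processed columns carry no array number, so the ranges were not compared on them. Sucla2, Pdp1 and Slc25a10 read close to background, which limits what their differences can show.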
